A study of Mus musculus with 3 samples.

Results

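The 32 genes described here encode the acidifying, structural and digestive parts of the lysosome together with the transcription factors that control them. They were chosen by name, as 14 subunits of the vacuolar proton pump, 5 membrane or cholesterol-export genes, 10 genes of luminal proteins and 3 genes of the TFEB family, and all 32 symbols were found among the 55536 annotated genes. The cells were macrophages grown from the bone marrow of C57BL/6J mice. They were exposed to 100 ng/ml Lipid A for 12 hours, washed and rested for 12 hours, and exposed to 100 ng/ml Lipid A once more for 50 minutes. Lipid A is the part of bacterial lipopolysaccharide that Toll-like receptor 4 senses. RNA of the chromatin fraction, where transcripts are made and some are kept, was sequenced after removal of ribosomal RNA in 3 libraries of this single group, so every value below is a level and none is a response to Lipid A.

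Lysosomes digest material delivered by phagocytosis, endocytosis and autophagy. The vacuolar ATPase (V-ATPase) pumps protons into the lumen, using a cytosolic V1 sector that hydrolyses ATP and a membrane V0 sector that carries the protons, and the resulting low pH activates the hydrolases. TFEB and its relatives TFE3 and MITF are basic helix-loop-helix factors that enter the nucleus when mTORC1 signalling at the lysosome falls, and they bind the CLEAR element, an E-box found near the start sites of many lysosomal genes. In macrophages these genes serve the killing and digestion of microbes.

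Chromatin-associated RNA was found for nearly all of the genes. At the threshold used here, a level of at least 1 TPM in every library (TPM, transcripts scaled for length and library size), 31 of 32 were detected, and the remaining gene was Lyz1. The same threshold was met by 39.2% of the 22028 protein-coding genes and by 20.2% of all annotated genes. The median of the genes' mean levels was 42.8 TPM, beside 0.367 TPM over all protein-coding genes and 9.95 TPM over the 8638 detected ones. Of the 32 genes, 25 stood above the last of these values. Their summed level was 2446, 2438 and 2297 TPM in replicates 1, 2 and 3. Being genes named for a role in a cell type that uses it, they were not a random draw, and no test was made of these medians.

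The libraries held 13722860, 19556984 and 19298034 expected counts over annotated genes and were made from 1000, 250 and 500 ng of starting RNA, in the order of replicates 1, 2 and 3. All 10 macrophage markers were detected, with a summed level of 1160 to 1272 TPM. None of 9 neutrophil, 7 dendritic-cell, 6 T and B cell or 6 stromal and endothelial markers was detected, and their sums stayed at or under 4.40 TPM in each library. Of these markers, Elane, Retnlg, Cd209a, Cd3e and Cd3g were at 0 in every library of the alignment-based tables, while Cd3g had a read-based mean of 0.610 TPM. Of 8 osteoclast markers 1 was detected (Nfatc1, 5.06 TPM), Oscar was at 0, and the sum was 6.81 to 7.73 TPM. In the read-based tables the sums of mean levels were 1513 TPM for macrophage, 18.0 for osteoclast, 10.5 for stromal and endothelial, 5.26 for dendritic-cell, 1.91 for neutrophil and 1.67 for T and B cell markers. There Ocstamp (8.84 TPM) and Pecam1 (7.92 TPM), at 0.0367 and 1.45 TPM in the alignment-based tables, held most of the gain of the osteoclast and the stromal and endothelial lists. A read-based mean of at least 1 TPM was reached by 10 macrophage, 4 osteoclast, 3 dendritic-cell, 2 stromal and endothelial, 1 neutrophil and 0 T and B cell markers. In bulk RNA, fewer cells of a type and less RNA per cell cannot be told apart.

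**Figure D1:**
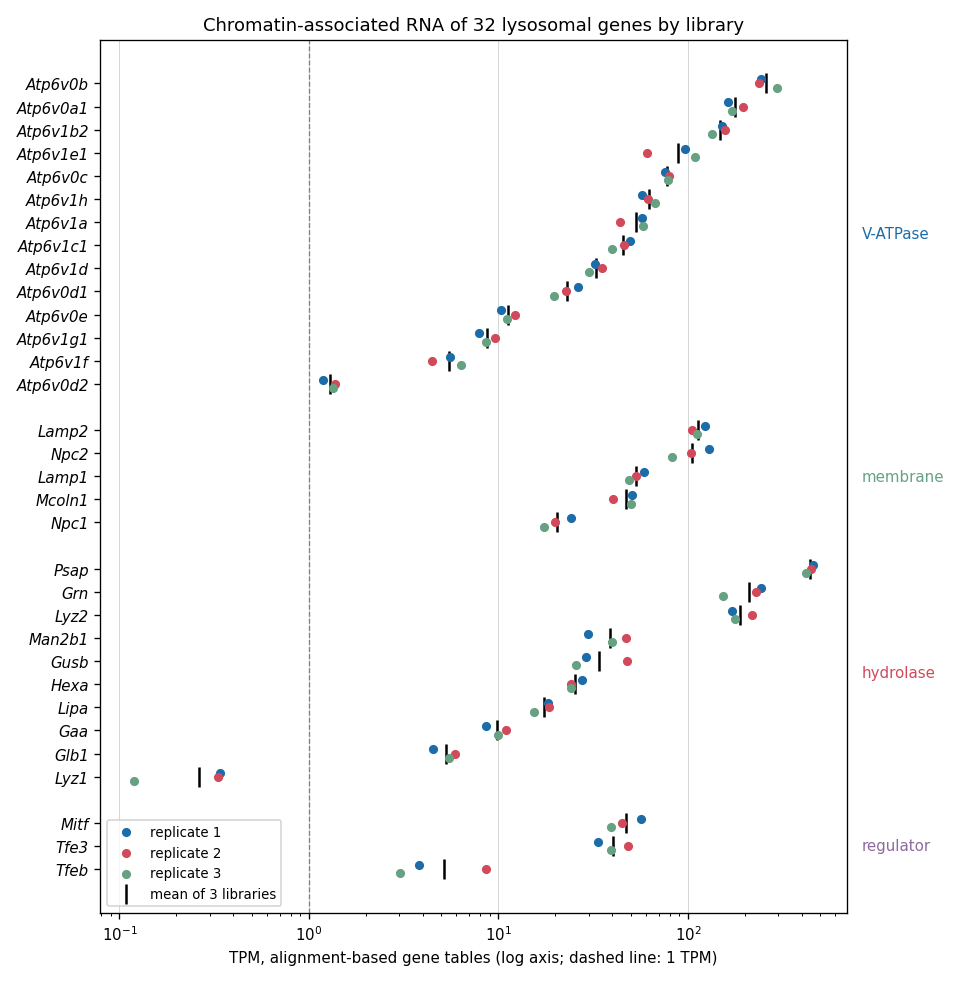
Level of each of the 32 genes in TPM on a log axis, with 1 point per library and a tick at the mean of 3 libraries. Genes run down the page by group and, within each group, by falling mean. The highest mean is that of Psap at 441 TPM. The lowest is that of Lyz1 at 0.263 TPM, the only gene left of the dashed line at 1 TPM in all 3 libraries.

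The promoters show where these genes carry the E-box core that the TFEB family recognises, so windows of 7 of the 8 genes with a match are printed first. RefSeq promoter sequences (assembly GRCm38.p6, 250 bases before to 50 bases after the start) matched 26 of the 32 genes. The 6-base core CACGTG, which reads the same on both strands, occurred in 8 of the 26 (30.8%). It occurred in 8.09% of the 27025 genes with a promoter and in 12.6% of the 6934 among them that are protein-coding and were detected here. The 26 genes were chosen by name and the CLEAR element is known from lysosomal genes. These shares are therefore a description and no test of an excess. Each line below gives 60 bases read 5′ to 3′ on the gene's own strand with 1 copy of the core in capitals, and further copies stand in lower case.
Atp6v0b: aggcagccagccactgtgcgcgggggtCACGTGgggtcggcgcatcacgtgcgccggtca
Atp6v0d1: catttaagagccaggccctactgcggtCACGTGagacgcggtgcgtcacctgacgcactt
Atp6v1a: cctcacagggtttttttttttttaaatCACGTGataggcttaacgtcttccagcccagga
Lamp1: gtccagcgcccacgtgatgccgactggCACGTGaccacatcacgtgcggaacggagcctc
Mcoln1: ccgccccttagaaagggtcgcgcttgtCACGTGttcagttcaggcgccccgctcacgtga
Gaa: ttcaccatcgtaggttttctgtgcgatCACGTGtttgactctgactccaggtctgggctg
Glb1: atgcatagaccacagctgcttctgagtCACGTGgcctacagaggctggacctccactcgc

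These windows lie at chr4:117887333-117887392 (minus strand) for Atp6v0b, chr8:105566035-105566094 (minus) for Atp6v0d1 and chr16:44139358-44139417 (minus) for Atp6v1a. On the plus strand they lie at chr8:13159106-13159165 for Lamp1, chr8:3500421-3500480 for Mcoln1, chr11:119267796-119267855 for Gaa and chr9:114401003-114401062 for Glb1. The eighth gene, Atp6v0e, held the core 3 bases after its start. Lamp1 held 4 copies, beginning 61, 45, 28 and 15 bases before the start, Mcoln1 held 2 copies at 71 and 45 bases and Atp6v0b held 2 copies at 36 and 18 bases. Single copies began 3 bases before the start in Atp6v0d1, 48 in Glb1, 131 in Atp6v1a and 140 in Gaa.

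All 8 genes also held the core with at least 1 flanking base of the longer element (TCACGTG or CACGTGA, both containing the core). This form was present in 4.29% of all genes and in 7.95% of detected protein-coding genes. The palindrome TCACGTGA was present in Atp6v0d1, Atp6v0e, Atp6v1a and Mcoln1 (in Mcoln1 as the lower-case copy that ends its line), which is 15.4% of the 26 genes, beside 1.12% of all genes and 2.65% of detected protein-coding genes. By group, the core was found in 4 of 9 V-ATPase genes, 2 of 4 membrane genes, 2 of 10 hydrolase-group genes and 0 of 3 regulators. In these libraries the median level was 35.0 TPM over the 8 genes with the core, beside 43.7 TPM over the 18 genes without it. A match describes letters in a window and is not a measured binding site, and of the 34 promoters of these genes 20 had a start within 10 bases of a GENCODE transcript start.

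**Figure D2:**
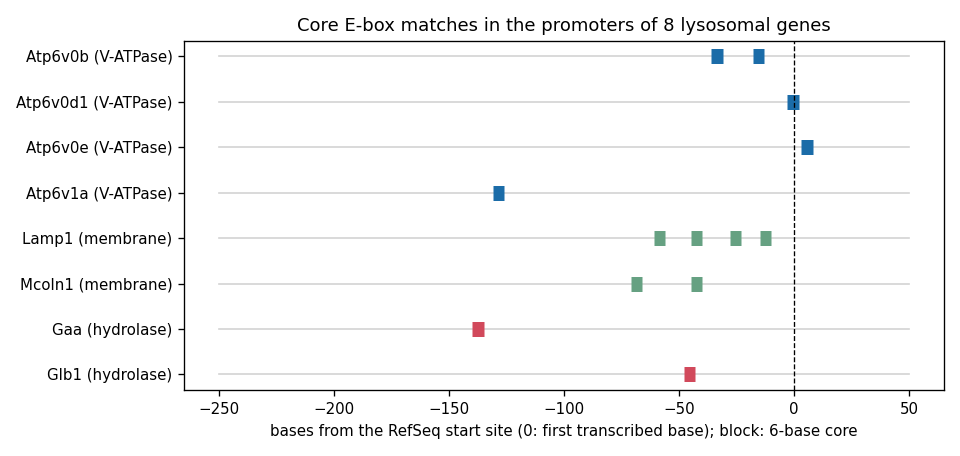
Position of each 6-base core match in bases from the RefSeq start site (0) for the 8 genes whose promoter held one; grey lines span the 300 bases searched and blocks are coloured by gene group. Lamp1 carries 4 blocks, Mcoln1 and Atp6v0b carry 2 each, and the other 5 genes carry 1.

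All 14 V-ATPase genes passed the detection threshold. Their median was 49.1 TPM and their range 1.30 to 259 TPM, with the low end held by Atp6v0d2, an alternative to Atp6v0d1. The lowest genes, Atp6v0e (11.2 TPM), Atp6v1g1 (8.70), Atp6v1f (5.46) and Atp6v0d2, have protein-coding transcripts alone in the annotation. Higher genes also drew on other classes: over protein-coding transcripts alone Atp6v0b averaged 156 TPM, Atp6v0a1 49.2 and Atp6v1b2 24.2. The width of the range therefore depends on the transcripts counted. Of the V0 sector, Atp6v0b, the c″ proteolipid of the rotor ring, was the highest at 244, 237 and 296 TPM in replicates 1, 2 and 3. Atp6v0a1, an a subunit that carries the proton channels, followed at 162, 196 and 172 TPM. Atp6v0c, the main proteolipid of the ring, held 75.7, 79.2 and 78.5 TPM, the narrowest spread of the 32 genes in TPM (coefficient of variation 2.37%), while with TMM-scaled counts Atp6v0a1 was narrowest (1.37%, beside 4.32% for Atp6v0c). The libraries of these 3 genes did not overlap. Atp6v0d1, which couples the ring to the central stalk, averaged 23.0 ± 3.32 TPM (SD, n = 3, as for every SD below), and Atp6v0e, a small membrane subunit, averaged 11.2 ± 0.940 TPM.

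Of the V1 sector, Atp6v1b2, a nucleotide-binding B subunit, stood at 151, 158 and 134 TPM. Its partner Atp6v1a, the catalytic A subunit, stood at 57.3, 43.9 and 58.1 TPM, below Atp6v1b2 in every library. Over protein-coding transcripts alone Atp6v1a held 28.5, 22.7 and 35.0 TPM and Atp6v1b2 held 24.6, 25.1 and 23.0 TPM, so that Atp6v1a was the higher in 2 of 3 libraries. Atp6v1e1, a subunit of the peripheral stalks, varied most within the complex at 96.2, 60.8 and 108 TPM, with replicate 2 lowest. Atp6v1g1, its partner in those stalks, averaged 8.70 ± 0.893 TPM and was lower than Atp6v1e1 in all 3 libraries. Atp6v1h, a regulatory subunit, averaged 62.2 ± 4.88 TPM and Atp6v1c1, which joins the stalks to V0, averaged 45.2 ± 4.93 TPM. The rotor subunits Atp6v1d and Atp6v1f averaged 32.6 ± 2.51 and 5.46 ± 0.948 TPM. In the order of levels within the complex, the neighbours Atp6v1e1 and Atp6v0c, Atp6v1h and Atp6v1a, and Atp6v1a and Atp6v1c1 overlapped between libraries, and the other neighbours did not. The V0 genes had a median of 50.4 TPM and the V1 genes one of 49.1 TPM.

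Several of these subunits have alternative genes. By alignment-based levels more than 1 of them was detected for the a, d and G subunits, and for B, C, E and e only the gene among the 32 was. In the read-based tables Atp6v0e2, an alternative e subunit gene, had a mean of 3.06 TPM, beside 21.1 TPM for Atp6v0e. Atp6v0d2, the d subunit known from osteoclasts and some macrophages, held 1.18, 1.38 and 1.34 TPM, against 26.3, 22.9 and 19.7 TPM of Atp6v0d1. The difference on the log2(TPM + 1) scale was -3.37 ± 0.26, which is 10.4-fold lower on that scale, and Atp6v0d2 was the lower in 3 of 3 libraries. Because the added 1 is close to its level, the plain ratio of mean TPM was larger, 17.7-fold lower. The exact two-sided sign-flip test gave p = 0.25, adjusted p = 0.25 over 6 gene pairs compared, which is the smallest p that 3 libraries can give and holds for each pair below. Atp6v0d2 rested on 38, 57 and 51 counts. Its coding sequence has 65.7% identity to that of Atp6v0d1 and no identical run longer than 17 bases. Of the 8 osteoclast markers, Nfatc1 stood above it at 5.06 TPM, Acp5 was level with it at 1.30 TPM, and the other 6 were at or under the 0.583 TPM of Ctsk.

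A list of 11 further V-ATPase genes had 5 detected members and a median of 0.123 TPM. Tcirg1, the a3 subunit of lysosomes and osteoclasts, was far above the rest at 914, 1043 and 1085 TPM, above Atp6v0a1 in each library. The accessory subunits Atp6ap1 and Atp6ap2 averaged 39.0 ± 6.28 and 21.6 ± 4.97 TPM. Atp6v0a4, Atp6v1e2 and Atp6v1g3, forms known from kidney epithelium or testis, had no expected counts in any library. In the read-based tables Atp6v1g3 averaged 0.463 TPM, and Atp6v0a4 and Atp6v1e2 were at 0. Atp6v0a2, a further a subunit, averaged 9.83 ± 4.19 TPM and Atp6v1g2, known from brain, 2.78 ± 0.979 TPM. Their read-based means were 13.6 and 8.25 TPM. Atp6v1b1 had 2 expected counts in each library, Atp6v1c2 had 1 or 2, and Atp6v0e2 had 1 in replicate 2 alone.

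**Figure D3:**
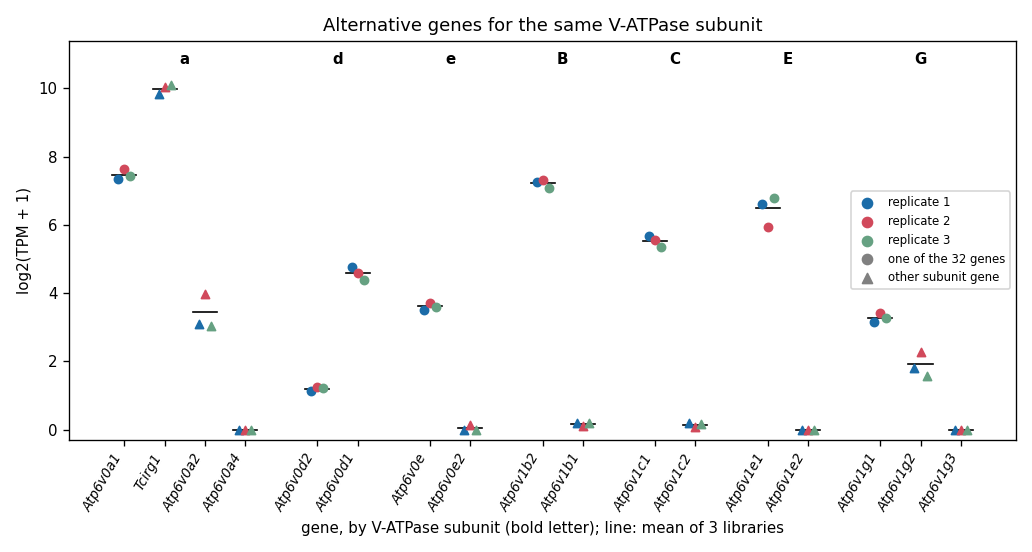
Levels as log2(TPM + 1) of genes that encode the same V-ATPase subunit, grouped by subunit letter, with 1 point per library and a line at the mean. Circles are among the 32 genes and triangles are other subunit genes; Tcirg1 stands above Atp6v0a1, Atp6v0d2 below Atp6v0d1, and Atp6v0a4, Atp6v1e2 and Atp6v1g3 lie at 0.

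The 5 membrane and cholesterol-export genes all passed the threshold and had a median of 53.4 TPM. Lamp2, a glycoprotein of the limiting membrane that also serves autophagy, held 124, 105 and 112 TPM, and Lamp1, the related coat glycoprotein, held 58.4, 53.2 and 48.8 TPM. Lamp2 was the higher in every library, by 1.07 ± 0.10 on the log2 scale (2.10-fold). Npc2, a soluble luminal protein that hands cholesterol to the membrane transporter Npc1, stood at 129.95, 103 and 82.8 TPM. Npc1 stood at 24.1, 19.9 and 17.4 TPM, and the difference of Npc2 to Npc1 was 2.30 ± 0.10 on the log2 scale (4.92-fold, higher in 3 of 3 libraries). Counting protein-coding transcripts alone, that difference was 0.86. Both genes were highest in replicate 1 and lowest in replicate 3. Mcoln1, the lysosomal calcium channel TRPML1, averaged 47.1 ± 5.91 TPM. Lamp2 overlapped with Npc2 and Lamp1 overlapped with Mcoln1 between libraries.

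Other genes of the lysosomal membrane, 20 in all, had 19 detected members and a median of 21.9 TPM. Clcn7, the chloride-proton exchanger, was highest at 322 ± 60.7 TPM, followed by the peptide transporter Slc15a3 at 243 ± 68.5 TPM and the channel Mcoln2 at 226 ± 39.0 TPM. Ostm1, the partner subunit of Clcn7, averaged only 3.22 ± 1.47 TPM, and Lamp3, known from mature dendritic cells, 0.0133 TPM.

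The group of luminal proteins spanned the widest range, from 0.263 to 441 TPM around a median of 29.8 TPM. Its 3 highest members were Psap and Grn, which are precursor proteins, and the enzyme gene Lyz2. Psap, the precursor of the saposins that help enzymes reach sphingolipids, held 457, 444 and 422 TPM, with a coefficient of variation of 3.95%, and exceeded 99.7% of protein-coding genes. Grn, the precursor of the granulins, held 244, 229.95 and 154 TPM, lowest in replicate 3. Lyz2, the lysozyme of myeloid cells that cuts bacterial cell walls, held 170.1, 218 and 177 TPM. Grn and Lyz2 overlapped between libraries, and neither overlapped with Psap or with the next gene below. Neutrophils also make Lyz2, and the 9 neutrophil markers summed to 0.49 to 0.56 TPM by library and to 1.91 TPM in the read-based means.

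The enzymes of sugar, glycolipid and lipid breakdown were lower. Man2b1, an acid α-mannosidase, held 29.8, 47.4 and 39.6 TPM, and Gusb, β-glucuronidase, held 29.1, 47.7 and 25.6 TPM. Both were highest in replicate 2, and they overlapped with each other. Hexa, the α subunit of β-hexosaminidase, averaged 25.4 ± 2.04 TPM and overlapped with Gusb. Lipa, the acid lipase that frees cholesterol from its esters, averaged 17.4 ± 1.68 TPM. Gaa, which degrades glycogen, averaged 9.84 ± 1.21 TPM and Glb1, β-galactosidase, averaged 5.29 ± 0.721 TPM. From Hexa down to Glb1 no neighbours overlapped between libraries.

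Other luminal enzymes also covered a wide span, with 23 of 29 detected and a median level of 12.1 TPM. Ctsa, a protective serine carboxypeptidase, averaged 156 ± 16.2 TPM, and the acid phosphatase Acp2 averaged 112 ± 29.8 TPM. The lowest were Gm2a, the GM2 activator protein, at 0.547 ± 0.0115 TPM and Smpd1, acid sphingomyelinase, at 0.320 ± 0.125 TPM. Of 10 genes of mannose 6-phosphate tagging and delivery, which bring these enzymes to the lysosome, 9 were detected. M6pr, Gga1 and Vps35 led at 39.1, 37.3 and 36.5 TPM, but in the read-based tables Igf2r, the other mannose 6-phosphate receptor, led at 126 TPM (25.3 TPM alignment-based), and Nagpa and Sort1 were lowest at 3.01 and 0.807 TPM.

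The 2 lysozyme genes lie next to each other on the minus strand of chromosome 10, Lyz2 at 117277331 to 117282321 and Lyz1 at 117287797 to 117292868 (mm10), with 5475 bases between them. Because reads from such near-copies can be confused, the stretch of their coding sequences that separates them best is shown, coding bases 61 to 120 of GENCODE M21 transcripts on build GRCm38, with the 9 differing bases in capitals.
Lyz2: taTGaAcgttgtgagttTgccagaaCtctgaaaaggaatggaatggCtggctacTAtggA
Lyz1: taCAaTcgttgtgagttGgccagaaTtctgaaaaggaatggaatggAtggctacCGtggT

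Over all 444 coding bases the genes differ at 22 positions and share 422, and the longest identical run is 118 bases, within which reads cannot be told apart. Lyz2 had 2645, 4171 and 3132 expected counts in replicates 1, 2 and 3, and Lyz1 had 5, 6 and 2. Lyz1 is known in mice as the lysozyme of intestinal Paneth cells. The TPM ratio of Lyz2 to Lyz1 was 715 over the 3 libraries, with a 95% interval of 418 to 1343 for counting error only. By library it was 500.2, 661 and 1472, and the last rests on 2 counts of Lyz1 and has an interval of 408 to 12157. On the log2(TPM + 1) scale the difference was 7.22 ± 0.20, which is 149-fold because the added 1 exceeds the level of Lyz1.

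The 3 regulators were unequal. Mitf, best known from pigment cells and osteoclasts, held 56.6, 44.95 and 39.5 TPM, and Tfe3 held 33.5, 48.3 and 39.5 TPM, so that the 2 genes overlapped. Tfeb, the factor after which the network is named, held 3.82, 8.61 and 3.03 TPM and lay below both in every library. Its difference was 2.84 ± 0.49 on the log2 scale to Tfe3 (7.17-fold) and 3.05 ± 0.70 to Mitf (8.31-fold), in 3 of 3 libraries each. Tfeb had the largest coefficient of variation of the 32 genes in TPM, 58.6%, though with TMM-scaled counts Lyz1 (49.9%) exceeded it (43.2%), and it rested on 69, 189 and 71 counts. Replicate 2 carried this: without it the mean was 3.43 TPM, against 5.15 TPM with all 3 libraries.

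The low rank of Tfeb also depended on how transcripts were counted. Tfe3 had 87.9% of its TPM in transcripts annotated as retained intron, and Mitf had 51.7% outside protein-coding transcripts. With protein-coding transcripts alone Tfe3 averaged 4.69 ± 1.19 TPM, Tfeb 4.06 ± 1.99 TPM and Mitf 22.4 ± 1.53 TPM, and the log2 difference of Tfe3 to Tfeb was 0.21. By library that difference was 0.53, -0.75 and 0.86, with Tfe3 the lower in replicate 2. In the read-based tables Tfeb stood at 10.1, 26.3 and 9.03 TPM, 2.94 times its alignment-based level. Mitf overlaps the processed pseudogene Gm15531 on the opposite strand, which held 39.8, 56.2 and 82.8 TPM. No source used here says whether strand guided the assignment of reads, so the split between them is uncertain.

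Tfec, the remaining member of this family and one largely restricted to myeloid cells, held 237, 132 and 351 TPM, above Mitf, Tfe3 and Tfeb in each library. It belongs to a list of 20 genes of the family's control by mTORC1, folliculin and calcineurin, of which 18 were detected at a median of 26.6 TPM. Fnip2, a folliculin partner, averaged 229 ± 82.4 TPM and Lamtor3, a subunit of the Ragulator complex that anchors mTORC1, averaged 66.9 ± 7.83 TPM. Lamtor2, of the same complex, averaged 0.583 ± 0.133 TPM and the Rag GTPase gene Rragb 0.117 ± 0.0208 TPM. Lamtor2 rested on only 4, 4 and 3 counts and Rragb on 3, 5 and 1 in replicates 1, 2 and 3. Of 13 autophagy genes known as TFEB targets 11 were detected, led by Sqstm1, the autophagy receptor p62, at 924, 467 and 1018 TPM. Uvrag and Becn1, subunits of the kinase complex that starts autophagosomes and matures them, averaged 74.9 ± 0.547 and 56.8 ± 4.76 TPM. Over protein-coding transcripts alone Uvrag averaged 6.00 TPM and Becn1 2.97 TPM. On that measure Sqstm1 still led at 277 TPM, followed by Rab7 at 26.7 TPM. Wipi1 and Ppargc1a were lowest at 1.11 and 0.0767 TPM.

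Set side by side as group medians of log2(mean TPM + 1), the V-ATPase genes exceeded the hydrolase group by 0.71 (1.64-fold), the membrane genes did so by 0.84 (1.79-fold) and the regulators by 0.44 (1.36-fold). The V-ATPase difference was 0.89, 0.39 and 0.92 in replicates 1, 2 and 3, the membrane difference 1.01, 0.63 and 0.99, and the regulator difference 0.23, 0.40 and 0.64. All were positive in each library. Over protein-coding transcripts alone, the V-ATPase difference was -0.20 and the regulator difference -1.74, so these orders turned round, while the membrane difference remained positive at 0.53. By group means in place of medians the regulator difference was -0.46. The gaps are descriptions of small gene groups and carry no test.

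Much of the genes' level lay in transcripts that GENCODE does not class as protein-coding. The median gene had 45.2% of its TPM outside protein-coding transcripts, with library medians of 49.9, 46.9 and 40.9%. Detected protein-coding genes in general had a median of 43.9%, so the lysosomal genes stood close to that background. More than 50% of the TPM lay outside in 12 of 32 genes (37.5%), beside 42.1% of detected protein-coding genes. By group the median was 55.4% for the V-ATPase, 49.5% for the membrane genes, 12.0% for the hydrolase group and 51.7% for the regulators. Another class is annotated for 10 of 14 V-ATPase, 5 of 5 membrane, 6 of 10 hydrolase-group and 3 of 3 regulator genes. Without it no share can lie outside, as for Hexa, Psap, Lyz1 and Lyz2, so the hydrolase-group median depends on the annotation. Those 6 hydrolase-group genes stood at 57.2% (Gusb), 54.5% (Grn), 43.4% (Man2b1 and Lipa), 12.0% (Gaa) and 11.9% (Glb1). In the read-based tables the group medians were 48.8, 54.5, 33.2 and 44.5% in the same order, so the low value of the hydrolase group was nearer to the others there.

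Individual genes ranged from 0 to 87.9%. After Tfe3, the largest retained-intron shares belonged to Atp6v1b2 (83.5%), Npc2 (81.5%) and Atp6v1h (80.4%). For Atp6v0c and Atp6v0a1, 76.0% and 71.9% lay in transcripts annotated as processed transcript. In the hydrolase group Gusb (57.2 ± 1.54%) and Grn (54.5 ± 6.89%) passed 50%. A share can only be above 0 where the annotation holds such a transcript, which was so for 24 of the 32 genes. The other 8, Atp6v0d2, Atp6v0e, Atp6v1f, Atp6v1g1, Hexa, Psap, Lyz1 and Lyz2, have protein-coding transcripts alone. The part of intronic reads in the levels of either kind of gene was not tested.

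**Figure D4:**
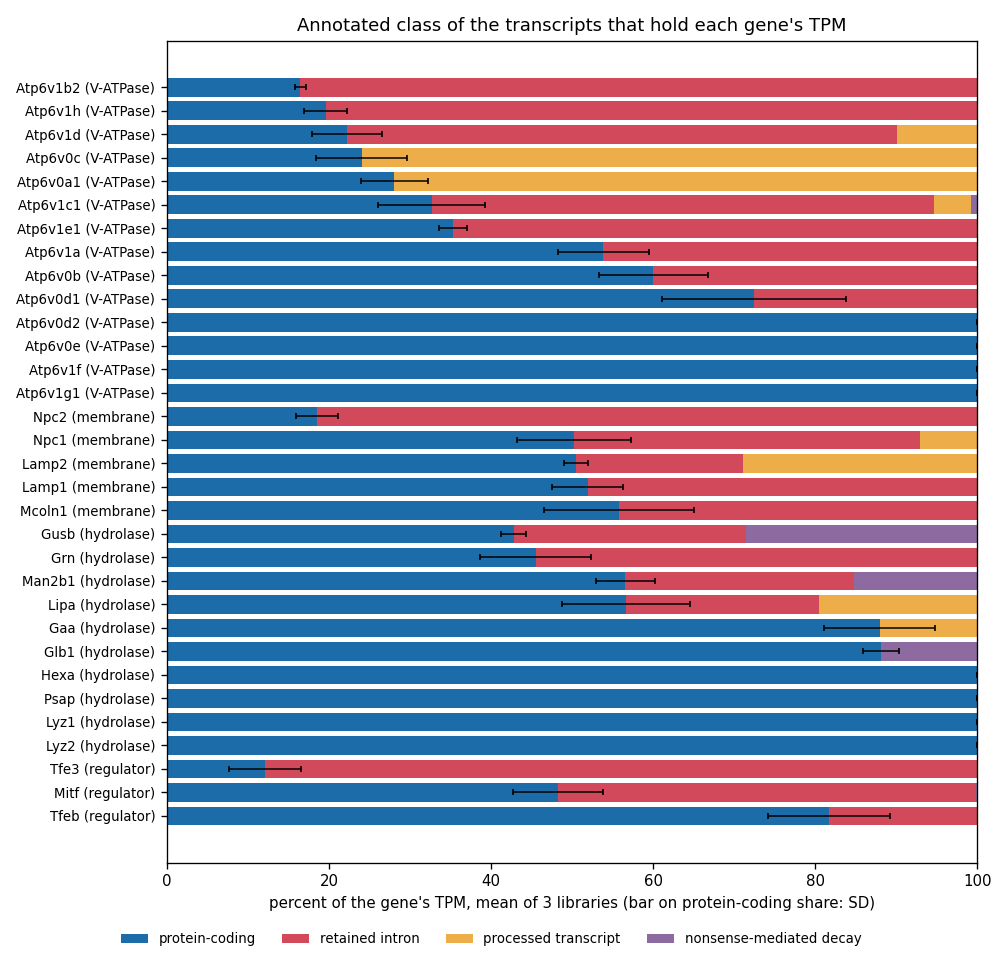
Percent of each gene's TPM held by its transcripts of each annotated class, as the mean of 3 libraries, with the SD drawn at the edge of the protein-coding share. Tfe3 has the smallest protein-coding share, and 8 genes with protein-coding transcripts alone fill the whole bar.

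Within a gene the transcripts could be far apart. Mitf-206, a retained-intron transcript, averaged 24.6 ± 7.36 TPM and Mitf-202, protein-coding, 16.0 ± 0.763 TPM. Lamp2 was carried mostly by the protein-coding Lamp2-202 at 40.8, 36.8 and 42.3 TPM and by a transcript classed as processed transcript at 37.0, 30.8 and 30.6 TPM. Of Psap, Psap-202 averaged 88.4 TPM in the read-based tables and 336 ± 28.2 TPM in the alignment-based ones. The gene as a whole had 420.1 ± 46.8 TPM read-based and 441 ± 17.4 TPM alignment-based, so levels of single Psap transcripts are uncertain.

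The spread between libraries was set beside that of other genes. The median coefficient of variation of the 32 genes was 12.5%, beside 22.7% over the 8638 detected protein-coding genes, whose median level of 9.95 TPM was lower. By group it was 10.1% for the V-ATPase, 12.6% for the membrane genes, 13.7% for the hydrolase group and 18.6% for the regulators. The highest library was replicate 1 for 12 genes, replicate 2 for 15 and replicate 3 for 5, which is 37.5, 46.9 and 15.6% of them. Among detected protein-coding genes these shares were 22.4, 55.7 and 21.9%. Replicate 2 had the smallest starting amount of RNA, and the part of that amount in these values was not tested.

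The deposited read-based tables gave a similar picture for whole genes. The ratio of read-based to alignment-based TPM had a median of 1.41 over the 32 genes, from 0.813 for Man2b1 to 2.94 for Tfeb, beside 1.30 over detected protein-coding genes. Tfeb and Atp6v0d2 (2.21) were the genes with a ratio over 2, which is 6.25% of the 32, beside 17.3% of detected protein-coding genes. Across the 32 genes, which are not independent replicates and share the reads, the ranks of the means had a Spearman rho of 0.974. Several genes overlap another one, among them Atp6v1b2 with Slc18a1 (14.1 TPM), Atp6v1e1 with Slc25a18 (10.6 TPM), Lamp1 with Grtp1 (14.5 TPM) and Npc1 with Rmc1 (21.9 TPM), all on the opposite strand, and Glb1 with Tmppe (1.78 TPM) on the same strand. Rmc1 was as high as Npc1, at 24.6, 22.5 and 18.6 TPM, and the split between these 2 genes is uncertain without the use of strand.

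**Figure D5:**
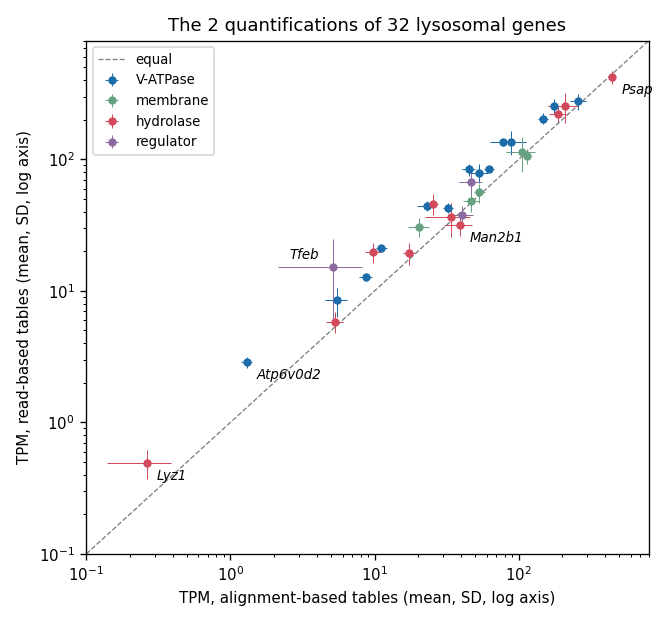
Mean level of each of the 32 genes in the read-based tables against that in the alignment-based tables, in TPM on log axes, with SD bars over 3 libraries and a dashed line where both are equal. Tfeb lies farthest above the line and Man2b1 farthest below it.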

How the data were processed

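Total RNA-seq of the chromatin fraction was available for 3 libraries of 1 group, 100 ng/ml Lipid A given 2 times, as described above. Per the file headers and deposited notes, reads were assigned to build mm10 with GENCODE M21. The sources used here give neither the programs nor any use of strand. The authors' alignment-based gene and transcript tables give TPM, which is corrected for effective length, a posterior mean TPM and expected counts, and their read-based transcript tables give TPM and estimated counts from the reads and an index. TPM summed per gene was the main measure. Detection meant 1 TPM or more in each of the libraries, and log2 values carry a pseudocount of 1. A count of 0 would allow up to 3 counts, and intervals and floors cover counting error only. All 32 symbols were matched by the tables' gene identifiers, and no sample column was left unmatched.

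The labels name the same donor for all libraries and do not say whether separate animals or cultures were used, so SDs and p-values cover only the spread among these libraries, which may be technical. Chi-square per degree of freedom between libraries was 57.6 to 146 over 11228 genes, so none was treated as a repeat deposit. Expected counts were rounded to whole numbers only for scaling by edgeR 4.0.16 and DESeq2 1.42.0 in R 4.3.3. Other steps used Python 3.11.15 with pandas 2.3.3, scipy 1.17.1 and Biopython 1.88, and were tested on simulated data. The members and lists were chosen with earlier results of these data known. The genes named are all 32 members and, of each other pathway list, the 3 highest and the 2 lowest by mean TPM, except 1 gene that is not reported here. The alternative V-ATPase genes Atp6v0a2, Atp6v0a4, Atp6v0e2, Atp6v1b1, Atp6v1c2 and Atp6v1g2, the overlapping genes and single markers were named after their values were seen. Ctsk, Nfatc1 and Oscar belong to the osteoclast list, and Cd68 and Acp5 are each in 2 lists. Alternatives were the read-based tables, posterior means, protein-coding transcripts alone, rescaling to protein-coding genes, other thresholds, pseudocounts and count scalings, and leaving out each library. Marker sums, marker counts and group shares in the read-based tables, the order of Atp6v1a and Atp6v1b2 over protein-coding transcripts and the naming of Igf2r were added after seeing the data. So were the naming of Rab7 and the protein-coding levels of autophagy, V-ATPase and other membrane genes. The read-based levels of alternative V-ATPase genes and of other membrane genes were added then too. Promoters for Atp6v0d2, Atp6v1b2, Atp6v1c1, Atp6v1g1, Atp6v1h and Npc1 were not used here.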

Additional observations from a re-analysis of the deposited data

How the results depend on the processing

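Of the alternative values, 94 kept their direction with no change of call, 11 moved without changing sign and 3 changed sign. The gene pairs could not change call, since 3 libraries cannot give a p under 0.25. All 8 alternatives of each pair are therefore among the 94, including the fall of Tfe3 over Tfeb from 2.84 to 0.21. The promoter share is also among them, though it was 30.8% for the core and 15.4% for TCACGTGA. The 94 are thus no measure of how far values shifted. The median level of the V-ATPase genes minus that of the hydrolase group was 1.24 with read-based TPM, 0.24 by means and -0.20 with protein-coding transcripts alone, a reversal. The difference for membrane genes was 0.53 with protein-coding transcripts alone and 0.62 with TMM-scaled CPM. The difference for regulators was 0.14 with read-based TPM, 1.17 with TMM-scaled CPM, -0.46 by means and -1.74 with protein-coding transcripts alone, the last pair being reversals. In an alternative added after seeing the data, leaving Lyz1 out gave 0.51, 0.63 and 0.24 for the V-ATPase, membrane and regulator differences. The median coefficient of variation was 15.7% with TMM-scaled CPM, 17.6% with DESeq2 size factors and 16.7% with read-based TPM, and 10.2 to 12.6% when each library was left out in turn. The cause of these shifts was not tested. The 22.7% over detected protein-coding genes is for TPM, and no such value is given here for the other scalings or the read-based tables. The number of genes detected was 30 to 31 under every alternative. The mean log2 differences of the 6 gene pairs kept their sign under the 8 alternatives run for each, with log2 differences of -4.03 to -2.92 for Atp6v0d2 over Atp6v0d1, 7.08 to 9.08 for Lyz2 over Lyz1, 0.92 to 1.12 for Lamp2 over Lamp1, 0.86 to 2.35 for Npc2 over Npc1, 0.21 to 3.08 for Tfe3 over Tfeb and 2.23 to 3.45 for Mitf over Tfeb. With protein-coding transcripts alone Tfe3 over Tfeb was -0.75 in replicate 2. The share of TPM outside protein-coding transcripts was 42.7 to 49.0%. No paired analysis was possible because there is 1 group. Depth limits Lyz1, with 2 to 6 counts, and Atp6v0d2 and Atp6v1f, with 38 to 57 in each library.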
